A study of Danio rerio with 40 samples.

Results

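This is an account of the piRNA clusters of zebrafish chromosome 4 in sperm. A piRNA cluster is a stretch of genome to which many piRNAs align. The clusters were taken by name from the deposited table: database clusters on the RefSeq sequence NC_007115.7, which is chromosome 4 of the GRCz11 build, and predicted clusters on chromosome 4 or on its alternate haplotypes whose reads come from a single strand. The rule used position and strandedness and no read count. It found 263 rows, of which 261 were distinct once rows with identical values were counted once, among 1398 distinct clusters in a table of 1434 rows. Of the 261 clusters, 253 begin above 27 Mb, on the long arm, and 8 begin below it, on the short arm. A further 45 predicted clusters of chromosome 4 take reads from both strands and are not members.

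piRNAs are small RNAs of the germ line that are bound by PIWI proteins and guide them to complementary transcripts, above all those of transposable elements. Their precursors are transcribed from clusters rich in transposon remnants, and the PIWI proteins of zebrafish, Ziwi and Zili, are needed for germ cells to be maintained and to differentiate. The long arm of chromosome 4 is heterochromatic, replicates late, holds few single-copy protein-coding genes and many repeats, including 5S ribosomal RNA genes, and carries the sex-linked region of natural zebrafish strains. The fish here were of the AB strain, a laboratory strain in which sex is not tied to that region.

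Wild-type males were kept under High competition, with more males than females in the tank, or Low competition, with more females than males. Each male passed through both treatments, and sperm was taken after each, so that High2 and Low1 come from males that met Low first, and Low2 and High1 from males that met High first. The piRNA table holds 24 libraries, 6 each of High2, Low2, High1 and Low1, and the other 16 of the 40 sperm samples are not analysed here. Groups were taken from the sample titles. The treatment labels of the public record give the same group for only 11 of the 24 libraries: they equal the titles for all 6 High1 libraries and for 4 Low1 and 1 Low2 libraries, but name 5 of the 6 High2 libraries Low2 and 5 of the 6 Low2 libraries High2. Every group comparison below rests on the titles, and the values under the other labels are given where they turn a direction. The table holds no genes, so that no marker of sperm or of other cells could be checked. In bulk sperm RNA, fewer cells of a type and less RNA per cell cannot be told apart. Replicates are separate sperm samples of a group, and p-values measure the spread between these libraries. The fit of all 24 libraries had no term for the male, so that repeated samples of a male were treated as independent.

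The libraries held between 5983071 and 56435023 reads in clusters. Low2 replicates 2 and 3 were the shallowest, at 7414024 and 5983071 reads, and 1 read there was worth 7.49 and 16.0 normalised reads, against 0.378 to 1.51 in the other libraries. A normalised read is a read divided by the size factor of its library. The reads carry no molecular identifiers. Depth bears on counting error, and its part in other differences between libraries was not tested. No member was at 0 in any library, and 7 of the 261 had fewer than 10 reads in at least 1 library. On the first principal component of all clusters, which held 29.7% of the variance, High1 replicate 1 and Low2 replicate 3 lay at 24.6 and 25.9, while the other 22 libraries lay between -13.5 and 9.41. Both are of sequencing pool 2. These 2 libraries enter every value below unless it is said that they were left out.

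Chromosome 4 carried a larger share of the known clusters than of the single-strand clusters predicted from these reads. It held 158 of the table's database clusters (29.7%) and 103 of its 691 single-strand predicted clusters (14.9%). Of the predicted two-strand clusters, which are not members, 45 lay on the chromosome and 130 off it. The 253 long arm clusters covered 2.98 Mb and the 8 short arm clusters 0.0718 Mb. Their median lengths were 10.6 kb on the long arm and 8.48 kb on the short arm, against 10.0 kb in the 1092 clusters off the chromosome. Clusters were found all along the long arm, with 34 beginning between 60 and 65 Mb, 30 between 40 and 45 Mb and 9 in the last window, from 75 Mb on. The window from 25 to 30 Mb, which spans the boundary of the arms, held 31 clusters of both arms. The first 25 Mb held 5 clusters. The longest was NC_007115.7:67590002-67648027, at 58.0 kb, and the longest of the short arm was chr4:9899019-9912014 on the plus strand, at 13.0 kb. The clusters nearest to 27 Mb were chr4:26921167-26928026 and chr4:27056031-27069027, both on the plus strand. The predicted clusters of the primary chromosome, 101 in number, showed no long blocks of a single strand: 50 of the 100 neighbouring pairs lay on the same strand, and the longest run of a strand was 7 clusters.

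A pair of clusters held most of the chromosome's cluster reads. Cluster reads are all small RNA reads that aligned to a cluster, summed over clusters, and a read can enter the sum more than once. Which of them are piRNAs was not tested. NC_007115.7:55793547-55813463, a database cluster of 19.9 kb, held a mean of 24.2% of all cluster reads, from 11.7% to 42.7% of a library, and was the most abundant cluster of the whole table. NC_007115.7:77550078-77563945, of 13.9 kb near the end of the long arm, held 11.6%, from 6.07% to 21.4%, and ranked number 4 in the table. Together they made up 82.7% of the reads of chromosome 4. The 10 most abundant members made up 94.3%, so that the remaining 251 shared what was left. The long arm as a whole held 43.2% of cluster reads on average and the short arm 0.101%. Without the most abundant pair, the other 251 long arm clusters held 7.38%, from 4.74% to 10.4% of a library.

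The long arm share varied widely between libraries, and its ranges overlapped between all groups. High2 libraries lay at or below 49.1% (median 40.4%), and the share ran from 34.6% to 66.1% in Low2 (median 39.7%), from 24.8% to 63.6% in High1 (median 41.5%) and from 28.6% to 52.5% in Low1 (median 44.2%). The highest shares were those of Low2 replicates 3 and 6 and High1 replicates 1 and 7, and the lowest that of High1 replicate 3. By sequencing pool, the 4 libraries of pool 2 lay between 49.1% and 66.1% and the 4 of pool 3 between 24.8% and 38.1%, and each group has a library in pool 2. The part of the pool in the shares was not tested. Among reads outside the 4 most abundant clusters of the table, the long arm held between 18.3% and 33.5% of a library.

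**Figure D1:**
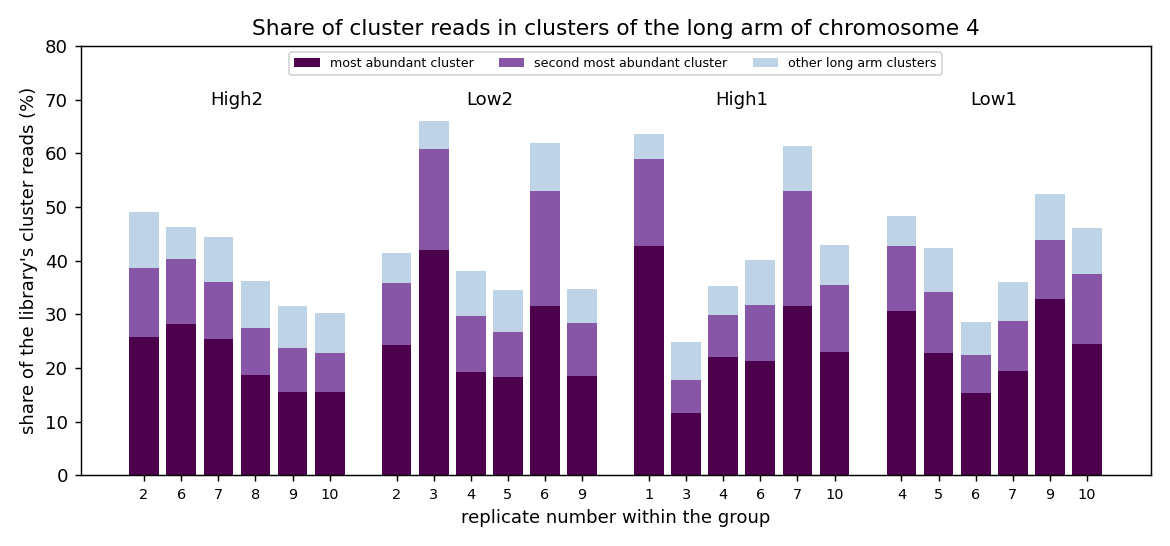
Share of each library's cluster reads (percent, vertical axis) that lay in the most abundant cluster, the second and the other 251 clusters of the long arm of chromosome 4, stacked, for the 6 replicates of High2, Low2, High1 and Low1. The most abundant cluster alone ran from 11.7% to 42.7%, while the light part on top stayed between 4.74% and 10.4%.

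The members of the abundant pair followed each other across libraries. The correlation of their log2 values was 0.96 over 24 libraries, and 0.86 when each was taken as the log2 of its share of reads. The next most abundant cluster, NC_007115.7:34306979-34316570, which held 0.988% of reads and begins 43.2 Mb before the second, correlated with it at 0.97. On the scale of shares, the most abundant cluster ran against the second most abundant of the table, which lies on a scaffold outside the chromosomes (r = -0.86 over the 24 libraries). On the log2 scale of normalised reads the same pair had r = -0.36. Shares of a library sum to a whole, so that a larger share of a dominant cluster goes with smaller shares elsewhere.

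Most of the next clusters by level lay between 50 and 55 Mb. NC_007115.7:50437029-50449910 held 0.921% of reads, from 0.542% to 1.59%. It lies wholly inside the predicted minus-strand cluster chr4:50433058-50458024 and had 98.4% of its reads, so that both rows count nearly the same reads. Beside it, chr4:50604001-50658016 on the minus strand, of 54.0 kb, held 0.609%. NC_007115.7:51988148-51994958 held 0.366%, and its share ran from 0.0275% to 0.911%. NC_007115.7:52720448-52740603, of 20.2 kb, held 0.514%, from 0.0786% to 1.71%. Outside that window, NC_007115.7:42692008-42710214 held 0.533%, from 0.0497% to 1.55%. Of the 10 clusters of the table with the most normalised reads, 5 were on chromosome 4, of which the 2 rows that overlap count nearly the same reads, and 4 when clusters are ranked by their mean share. Of the first 100 by normalised reads it had 20, against 18.7% of all clusters.

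Per length, the typical long arm cluster stood a little above the rest of the genome. The median over clusters of normalised reads per kb was 144 on the long arm, 173 on the short arm and 128 off the chromosome. In single libraries the long arm median was above the off-chromosome median in 23 of 24 and the short arm median in 22 of 24. The short arm medians, over only 8 clusters, ran from 90.2 to 188 normalised reads per kb, and the long arm medians from 113 to 164. These are descriptions without a test, as clusters are not replicates and can share reads.

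**Figure D2:**
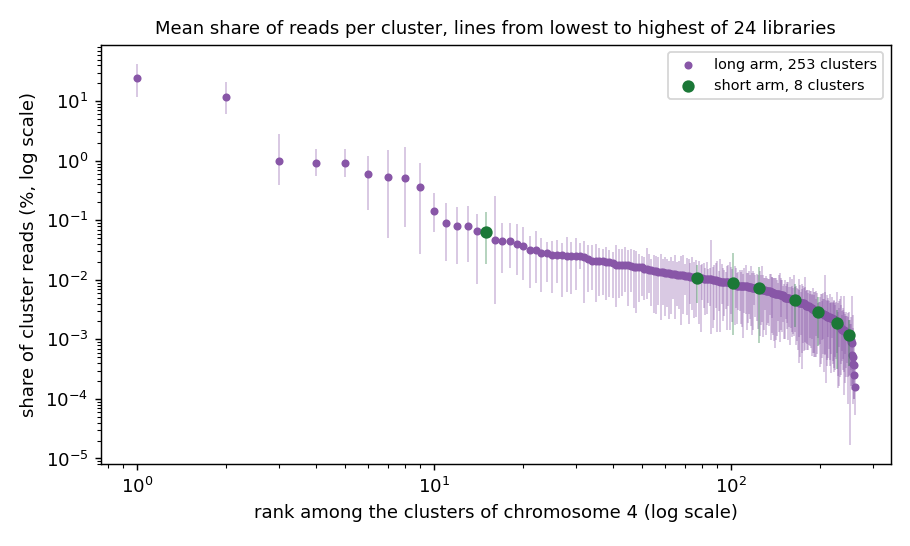
Mean share of cluster reads (percent, log scale) of the 261 clusters of chromosome 4 against their rank by that share (log scale), with lines from the lowest to the highest of 24 libraries. The first pair stands at 24.2% and 11.6%, the next cluster at 0.988%, and the first short arm cluster at 0.0636%.

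The short arm clusters were few, and 2 of the 8 lay above 242 normalised reads per kb, the third quartile of the long arm. The predicted plus-strand cluster chr4:9899019-9912014 held 0.0636% of reads at 1306 normalised reads per kb and ranked 50th of all clusters per length. It had 7204 to 21862 normalised reads in High2 libraries (median 13989), 6198 to 27444 in Low2 (median 17539), 9806 to 30453 in High1 (median 17659) and 15588 to 23025 in Low1 (median 16620). The groups overlapped, although 5 of the 6 High2 libraries lay below every Low1 library (log2 fold change of High2 over Low1 -0.46 ± 0.31, SE, limma adjusted p = 0.488). Next by reads per length were NC_007115.7:20281091-20286008, with 592 normalised reads per kb, and the predicted clusters chr4:19583350-19594923 with 190, chr4:26921167-26928026 with 175 and chr4:7124325-7134893 with 171. The cluster chr4:7124325-7134893 on the minus strand had 1913 to 2326 normalised reads in High2 libraries (median 2180) and 1535 to 1949 in Low1 (median 1672), a log2 fold change of 0.33 ± 0.19 (limma adjusted p = 0.43), and 4 of the 6 High2 libraries lay above every Low1 library.

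The levels of the clusters on either side of the boundary at 27 Mb were of the same order. The cluster just below it, chr4:26921167-26928026, had 175 normalised reads per kb and a coefficient of variation over libraries of 0.132. The cluster just above it, chr4:27056031-27069027, had 353 normalised reads per kb and a coefficient of variation of 0.382. The 31 clusters that begin between 25 and 30 Mb, on both sides of the boundary, had a median of 115, and the 30 between 40 and 45 Mb a median of 156. The highest window median of the long arm was 226, between 50 and 55 Mb.

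Some clusters were almost constant and others varied strongly. The coefficient of variation over 24 libraries had a median of 0.232 on the long arm, 0.208 on the short arm and 0.256 off the chromosome. Among the clusters with a mean of at least 100 normalised reads, the steadiest was NC_007115.7:29056005-29088022, a database cluster of 32.0 kb with a coefficient of 0.0617. It had 3710 to 4167 normalised reads in High2 libraries, 3768 to 4469 in Low2, 3782 to 4410 in High1 and 3536 to 4343 in Low1. The most variable was the minus-strand cluster chr4:42928066-42947018, with a coefficient of 1.16. It had 6903 to 64037 normalised reads in High2 libraries (median 8096), 3812 to 27246 in Low2 (median 6153), 2333 to 8361 in High1 (median 7204) and 4291 to 51713 in Low1 (median 13171). Its highest values were those of 1 library each in High2 and Low1, replicates 6 and 4, and the groups overlapped. Of the 261 clusters, 142 had their highest or lowest value in High1 replicate 1 or Low2 replicate 3. The share of all clusters that matches this count is not given here. High1 replicate 1 was the lowest library for 75 of the 261 (28.7%), against 17.3% of all clusters, and the highest for 12 (4.60%), against 11.7%. Low2 replicate 3 was the lowest for 34 (13.0%), against 13.9%, and the highest for 22 (8.43%), against 8.37%.

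The rows of the table are not independent of each other. Of the 158 database clusters, 31 overlapped a single-strand predicted cluster, in 32 pairs whose log2 values had a median correlation of 0.80 over the 24 libraries. The correlations ran from -0.30 to 0.99997, and 11 of the pairs exceeded 0.9. The lowest was that of NC_007115.7:63944230-63957025, which lies wholly inside chr4:63944101-63971999, so that overlapping rows did not always vary together. Clusters far apart could also behave as one. With a link drawn at a correlation above 0.95, 50 of the 261 clusters fell into 19 sets, and in 11 of the sets the members spanned more than 1 Mb. The predicted clusters chr4:37535000-37546007 and chr4:61971002-61981033 lie 24.4 Mb apart and had means of 4856 and 4480 normalised reads with a correlation of 0.998. NC_007115.7:46999001-47030024 and NC_007115.7:52656008-52680943, 5.66 Mb apart, had means of 20917 and 20900 with a correlation of 0.99. NC_007115.7:34807145-34823976, NC_007115.7:36986001-36999972, NC_007115.7:49922236-49929877 and NC_007115.7:67924019-67930934 formed a set over 33.1 Mb, with a lowest correlation of 0.98 and coefficients of variation between 0.869 and 1.09. The largest set had 7 clusters, and it joined the short arm cluster chr4:9899019-9912014 with 6 clusters of the long arm. The median correlation over all 33930 pairs of members was 0.03, and it was -0.00247 over pairs off the chromosome. A correlation above 0.95 was found in 39 of the 33930 member pairs and in 471 of the 595686 pairs off the chromosome. Such likeness is therefore not particular to chromosome 4. The sources do not say how reads that fit more than 1 cluster were assigned, and the part of shared reads in these sets was not tested.

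Whether sperm of the same line differed after High and after Low competition was asked first in High2 against Low1, males that met Low competition first. No cluster of chromosome 4 passed the test: 0 of 261 had a limma adjusted p below 0.05, as did 0 of all 1398 (0%), and limma-voom on the recovered reads also called 0. At an unadjusted p below 0.05 there were 27 of the 261 (10.3%), 10 higher and 17 lower in High2, against 14% of all clusters (4.22% higher and 9.8% lower). The count of 27 became 16 without Low1 replicate 5, 17 without any 1 of High2 replicate 7, High2 replicate 10 and Low1 replicate 4, 40 without High1 replicate 1 and 7 under the treatment labels of the public record. All 27 were on the long arm. Here and below, counts past an unadjusted p with libraries, labels or scaling changed lack the matching share of all clusters. They cannot be set against the table. The median log2 fold change of the members was 0.03 and that of all clusters 0.01, and 151 members were higher and 110 lower. In 7 of the 261 members the 6 High2 and 6 Low1 libraries did not overlap, 4 of them higher in High2, against 2.29% of all clusters.

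The 3 members higher in High2 with the smallest p were of low level, each among the 66 members with the lowest means. The predicted minus-strand cluster chr4:60877023-60885024 had 627 to 1094 normalised reads in High2 libraries (median 870) and 476 to 668 in Low1 (median 540), and 5 of the 6 High2 libraries lay above every Low1 library. Its log2 fold change was 0.57 ± 0.15 (SE, limma adjusted p = 0.156). NC_007115.7:76988247-76992378, the shortest member at 4.13 kb, had 518 to 771 normalised reads in High2 libraries (median 566) and 290 to 456 in Low1 (median 369). These ranges did not overlap, and the log2 fold change was 0.70 ± 0.26 (adjusted p = 0.215). NC_007115.7:29188020-29195935 had 279 to 511 in High2 (median 448) and 251 to 353 in Low1 (median 282), a log2 fold change of 0.51 ± 0.20 (adjusted p = 0.229).

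Among the members lower in High2, chr4:57344003-57355026 on the minus strand was 1 of 3 whose ranges did not overlap. It had 1721 to 2014 normalised reads in High2 libraries (median 1862) and 2105 to 3578 in Low1 (median 2803), with no overlap (log2 fold change -0.56 ± 0.16, adjusted p = 0.156). NC_007115.7:41646063-41653819 had 711 to 1688 in High2 (median 974) and 1197 to 3236 in Low1 (median 1716), and 5 of the 6 High2 libraries lay below every Low1 library (-0.85 ± 0.24, adjusted p = 0.156). The cluster chr4:27056031-27069027, the first of the long arm, had 2535 to 4946 in High2 (median 3011) and 3415 to 9085 in Low1 (median 6293), and 4 of the 6 High2 libraries lay below every Low1 library (-0.84 ± 0.24, adjusted p = 0.156). For all 6 of these members, the difference had the same direction in each of the 4 sequencing pools that hold both groups. They were chosen by their p in these same libraries, so that this agreement is not separate support. Pools 1 and 2 hold only 1 library of each group. Pool 4 holds 1 High2 and 3 Low1 libraries, and pool 5 holds 3 High2 and 1 Low1, so that the groups are spread unevenly over the pools. Within pools, the difference ran from 0.11 to 0.96 on the log2 scale for chr4:60877023-60885024 and from -0.74 to -0.34 for chr4:57344003-57355026.

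**Figure D3:**
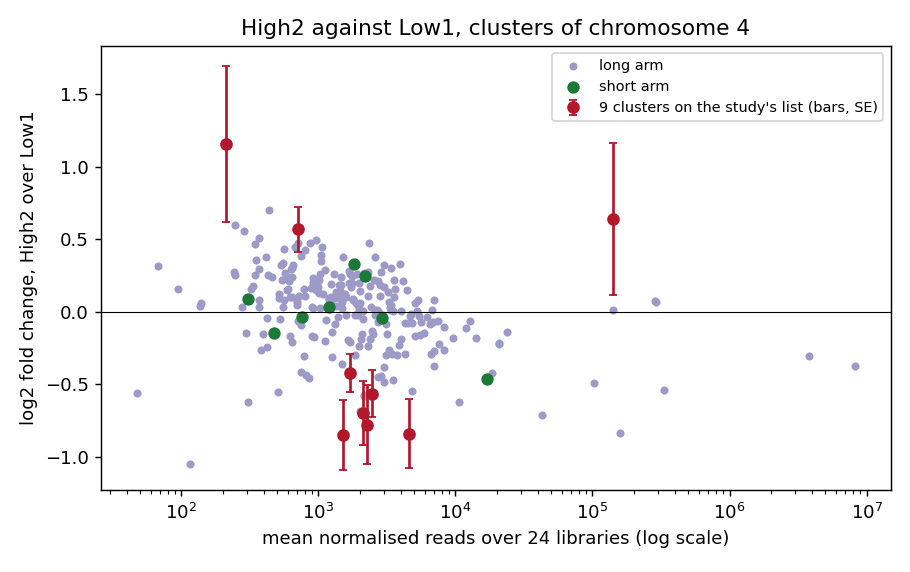
Log2 fold change of High2 over Low1 (vertical axis) against the mean normalised reads over 24 libraries (log scale) for the 261 clusters of chromosome 4, with the 9 clusters of the study's list in red and their SE as bars, and the 8 short arm clusters in green. Points of low level lie mostly above 0 and points of high level mostly below it, with medians of 0.15 over the 66 lowest members and -0.08 over the 65 highest.

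Whether any member passed turned on which libraries set the spread. With only the 12 libraries of High2 and Low1 in the fit, 70 members were past an unadjusted p of 0.05 and 5 of the 261 members had a limma adjusted p below 0.05, against 3.72% of all clusters (52). With High1 replicate 1 and Low2 replicate 3 left out, 48 members were past an unadjusted p of 0.05 and 5 passed, against 3.58% (50). The 70 and 48 are given without the share of all clusters in those fits, and do not set the chromosome apart from the table. The fold changes are the same in these fits, since neither library belongs to High2 or Low1, and it is the estimate of the spread that differs. The clusters that passed in both were chr4:57344003-57355026, chr4:60877023-60885024 and NC_007115.7:76988247-76992378, 3 in all. In the first fit these were joined by NC_007115.7:29601003-29610005 (log2 fold change 0.43 ± 0.10, SE, adjusted p = 0.0443) and NC_007115.7:36516023-36520882 (0.56 ± 0.14, adjusted p = 0.0487), and in the second by NC_007115.7:41646063-41653819 and chr4:27056031-27069027. With the treatment labels of the public record in place of the titles, 0 passed, and the log2 fold changes of chr4:60877023-60885024 and NC_007115.7:76988247-76992378 were -0.035 and -0.072.

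The direction of the difference went with the level of the cluster. Among the 66 members with the lowest means, up to 751 normalised reads, 50 were higher in High2 and 16 lower (median log2 fold change 0.15). Among the 65 members with the highest means, from 3320 normalised reads on, 21 were higher and 44 lower (median -0.08). The clusters off the chromosome showed the same tilt in the same ranges of level, with 212 higher and 75 lower in the lowest (median 0.16) and 61 higher and 150 lower in the highest (median -0.21). High2 libraries were scaled by size factors of the authors, and the part of scaling and depth in the tilt was not tested. When each library was centred on its median, the members past an unadjusted p of 0.05 were 14 higher and 12 lower, in place of 10 and 17. The share of all clusters under centring is not given here.

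The study lists clusters that it called over several pairwise comparisons of its groups, and 9 of the 58 listed rows found in the table are members. They are read here in High2 against Low1, whichever comparison gave the call. The study describes 40 sperm samples, and whether its calls rest on these 24 libraries alone is not known here. They are not independent evidence of a direction. Of the 9, 6 were lower and 3 higher in High2 than in Low1, and 0 had an adjusted p below 0.05 with all libraries in the fit. Besides the clusters named above, NC_007115.7:73175084-73181996 had 1382 to 2022 normalised reads in High2 (median 1578) and 1785 to 5268 in Low1 (median 2377), a log2 fold change of -0.70 ± 0.22 (adjusted p = 0.174). Nearby, chr4:73380021-73389987 on the minus strand had 1397 to 2163 in High2 (median 1640) and 1626 to 4466 in Low1 (median 3188), with -0.78 ± 0.27 (adjusted p = 0.204). NC_007115.7:46831029-46839861 had 1343 to 1958 in High2 (median 1447) and 1657 to 2443 in Low1 (median 2041), with -0.42 ± 0.13 (adjusted p = 0.174). In each of these 3 the ranges of the groups overlapped.

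Most listed clusters, lower or higher, had their closest partner on another chromosome. Over the 24 libraries, the cluster most like chr4:27056031-27069027 in its log2 values lies on chromosome 14 (r = 0.98), that most like NC_007115.7:41646063-41653819 on chromosome 8 (r = 0.97), that most like NC_007115.7:73175084-73181996 on chromosome 12 (r = 0.97) and that most like chr4:73380021-73389987 on chromosome 16 (r = 0.97). For chr4:57344003-57355026 it lies on chromosome 25 (r = 0.91). For those higher in High2, the closest partner had r = 0.72 for chr4:60877023-60885024 (chromosome 12), 0.82 for NC_007115.7:43701007-43707025 (chromosome 4) and 0.97 for NC_007115.7:52720448-52740603 (chromosome 8). Each is the highest value over the distinct clusters of the table, most of which lie off chromosome 4. The correlations are across libraries that share their size factors and are given without a test.

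**Figure D4:**
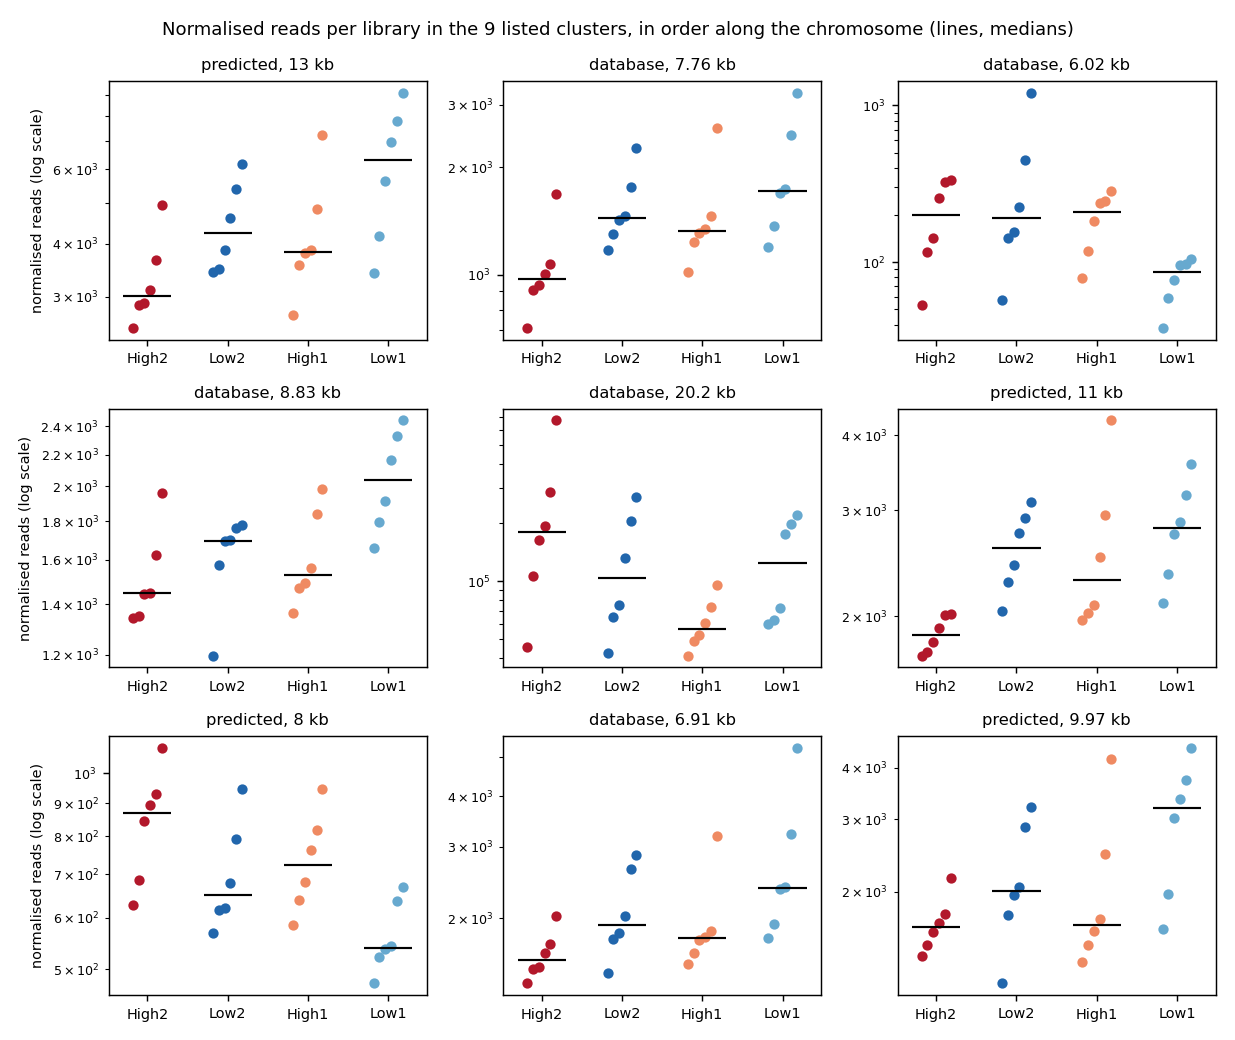
Normalised reads per library (log scale) in the 9 clusters of chromosome 4 on the study's list, in order along the chromosome from the upper left, for 6 libraries each of High2, Low2, High1 and Low1, with a line at each group's median. In 6 of the 9 panels the High2 median lies below the Low1 median, as at 1862 against 2803 in the predicted cluster of 11.0 kb.

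The abundant cluster NC_007115.7:52720448-52740603 varied within every group. As a share of all cluster reads it ran from 0.185% to 1.71% in High2 libraries (median 0.937%), from 0.0786% to 0.897% in Low2 (median 0.343%), from 0.133% to 0.336% in High1 (median 0.225%) and from 0.181% to 0.898% in Low1 (median 0.367%). All groups overlapped, and 3 of the 6 High2 libraries lay above every library of the other groups. The highest library was High2 replicate 10 and the lowest Low2 replicate 3. The log2 fold change of its normalised reads was 0.64 ± 0.52 for High2 over Low1 (SE, limma adjusted p = 0.568). This value was 0.25 without High2 replicate 10 and 1.03 without High2 replicate 6, and within pools it ran from -1.05 to 1.85, positive in 2 of 4. For High2 over High1 it was 1.56 ± 0.52 (adjusted p = 0.457), and 5 of the 6 High2 libraries lay above every High1 library. For High over Low it was -0.10 ± 0.37 (adjusted p = 0.937), and it turned to 0.090 without High2 replicate 6 and to 0.03 without Low2 replicate 2. Its most similar cluster lies on chromosome 8.

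NC_007115.7:43701007-43707025 had the largest fold change of the 9 listed members in High2 against Low1, and a low level. It had 52.9 to 332 normalised reads in High2 libraries (median 200.1), 57.5 to 1203 in Low2 (median 190.1), 78.9 to 286 in High1 (median 210.3) and 38.1 to 105 in Low1 (median 86.4). The Low1 group lay below the others and overlapped with each. Its log2 fold change was 1.16 ± 0.54 for High2 over Low1 (adjusted p = 0.331) and 1.60 ± 0.54 for Low2 over Low1 (adjusted p = 0.77), where it had the smallest p of the members that were higher.

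Both High groups were then taken against both Low groups, 12 libraries each and without a term for the male, and no member passed either. At a limma adjusted p below 0.05 there were 0 of 261 and 0% of all clusters. At an unadjusted p below 0.05 there were 16 members (6.13%), 6 higher and 10 lower in High. This stood against 8.73% of all clusters (2.79% higher and 5.94% lower). Centring the libraries on their medians gave 9 higher and 6 lower members, with no share of all clusters given for it. The count of 16 became 48 without High1 replicate 1, 30 without Low2 replicate 6, 10 without High1 replicate 6 and 9 without Low1 replicate 5 or Low2 replicate 3. The medians of the log2 fold change were 0.01 in the members and 0.00 in all clusters. The members higher in High with the smallest p were chr4:60877023-60885024 (0.32 ± 0.11), NC_007115.7:39741107-39747997 (0.45 ± 0.18) and NC_007115.7:28712036-28719989 (0.33 ± 0.13), each with an adjusted p of 0.551. Those lower were NC_007115.7:41646063-41653819 (-0.48 ± 0.17), chr4:27056031-27069027 (-0.46 ± 0.17) and NC_007115.7:73175084-73181996 (-0.40 ± 0.16), also with an adjusted p of 0.551. The first of these, chr4:60877023-60885024, had 585 to 1094 normalised reads in High libraries (median 791) and 476 to 945 in Low (median 619). NC_007115.7:41646063-41653819 had 711 to 2577 in High (median 1156) and 1174 to 3236 in Low (median 1578). NC_007115.7:28712036-28719989 had 270 to 581 in High (median 378) and 176 to 373 in Low (median 316), and its difference kept its direction in 3 of 5 pools. All of the others kept theirs in 5 of 5. These members were chosen by their p in the same libraries, so that agreement between pools is not separate support. Under the treatment labels of the public record, chr4:60877023-60885024 and NC_007115.7:28712036-28719989 had -0.10 and -0.043.

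The line that met High competition first was compared as Low2 against High1. There were 0 members with an adjusted p below 0.05, against 0% of all clusters, and 6 at an unadjusted p below 0.05 (2.30%), 2 higher and 4 lower in Low2, against 2.58% of all (0.858% higher and 1.72% lower). The count of 6 rested on single libraries: it became 22 without High1 replicate 1, 12 without Low2 replicate 6, 3 without High1 replicate 3 or replicate 10, and 1 without Low2 replicate 3. NC_007115.7:56635989-56643025 was first of those higher, with 178 to 536 normalised reads in Low2 (median 257) and 146 to 239 in High1 (median 219), and NC_007115.7:39741107-39747997 of those lower, with 144 to 556 in Low2 (median 378) and 298 to 740 in High1 (median 553). Their log2 fold changes were 0.49 ± 0.22 and -0.66 ± 0.26 (both limma adjusted p = 0.999), and the ranges overlapped. No member had groups without overlap here, nor had any cluster of the table (0%).

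High1 and Low1, both sampled after the first period, are of different males. There were 0 members with an adjusted p below 0.05 against 0% of all clusters, and 20 at an unadjusted p below 0.05 (7.66%), 10 in each direction, against 6.15% of all (2.72% higher and 3.43% lower). The count of 20 became 34 without High1 replicate 1, 13 without High1 replicate 7 and 9 without High1 replicate 4. NC_007115.7:61579484-61590581 had 333 to 465 normalised reads in High1 (median 389) and 228 to 322 in Low1 (median 266) without overlap, with a log2 fold change of 0.57 ± 0.17 (adjusted p = 0.625). It was 1 of 2 members whose groups did not overlap, against 0.358% of all clusters. NC_007115.7:41969000-41973948 had 959 to 2380 in High1 (median 1956) and 2170 to 3961 in Low1 (median 2744), with -0.72 ± 0.23 (adjusted p = 0.747). Without High1 replicate 1 and Low2 replicate 3, 2 members passed, NC_007115.7:50938082-50947990 (0.45 ± 0.09, adjusted p = 0.0249) and NC_007115.7:30384024-30389998 (0.70 ± 0.16, adjusted p = 0.0479), against 0.644% of all clusters (9).

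High2 and Low2, both sampled after the second period, are also of different males. High2 against Low2 gave 0 members with an adjusted p below 0.05 against 0% of all clusters. At an unadjusted p below 0.05 there were 19 (7.28%), 8 higher and 11 lower in High2. This stood against 10.2% of all clusters (5.58% higher and 4.58% lower). Centring the libraries on their medians gave 15 higher and 11 lower members, with no share of all clusters given for it. The count of 19 became 39 without Low2 replicate 6, 29 without High1 replicate 1, 10 without Low2 replicate 3 and 2 under the treatment labels of the public record. The predicted cluster chr4:42081004-42091017 had 512 to 727 normalised reads in High2 (median 558) and 288 to 534 in Low2 (median 457), with a log2 fold change of 0.45 ± 0.14. The plus-strand cluster chr4:29536003-29550006 had 1240 to 1674 in High2 (median 1549) and 1658 to 2942 in Low2 (median 1978), with -0.49 ± 0.15. Both had a limma adjusted p of 0.40, their ranges overlapped, and under the treatment labels of the public record, which exchange most libraries of these groups, their log2 fold changes were -0.14 and 0.24. The 2 members without overlap, chr4:57344003-57355026 and NC_007115.7:35244285-35252765, are to be read against 0.644% of all clusters.

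The same treatment was also compared between periods. High2 and High1 are of different males with different treatment histories, and so are Low2 and Low1. Period, males and earlier treatment therefore cannot be told apart here. High2 against High1 gave 0 members with an adjusted p below 0.05 (0% of all). At an unadjusted p below 0.05 there were 17 (6.51%), 9 higher and 8 lower in High2. This stood against 8.08% of all clusters (3.72% higher and 4.36% lower). Centring the libraries on their medians gave 17 higher and 6 lower members, with no share of all clusters given for it. The count of 17 became 27 without High1 replicate 6 and 9 without High1 replicate 1. No member had groups without overlap, against 0.572% of all. NC_007115.7:74008071-74016024 had 861 to 1215 normalised reads in High2 (median 1093) and 406 to 917 in High1 (median 765), a log2 fold change of 0.71 ± 0.23 (adjusted p = 0.442). The abundant minus-strand cluster chr4:50604001-50658016 held 0.218% to 1.01% of cluster reads in High2 libraries (median 0.437%), 0.279% to 1.07% in High1 (median 0.663%) and 0.424% to 1.21% in Low1 (median 0.58%). It had a log2 fold change of -0.83 ± 0.27 for High2 over High1 (adjusted p = 0.442) and of -0.83 ± 0.27 for High2 over Low1 (adjusted p = 0.174), and these comparisons share the High2 libraries. Low2 against Low1 gave 0 members (0% of all) and 10 at an unadjusted p below 0.05 (3.83%), 5 in each direction, against 4.72% of all (2.36% higher and 2.36% lower), and no member without overlap, against 0.0715% of all. The predicted short arm cluster chr4:26436000-26443887 was first of those lower, with 304 to 471 in Low2 (median 423) and 439 to 660 in Low1 (median 550), a log2 fold change of -0.45 ± 0.15 (adjusted p = 0.77).

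Whether the effect of High competition differed between the periods was tested as the difference of the 2 contrasts, High2 over Low2 less High1 over Low1. The same contrast sets the males that met Low first (High2 and Low1) against those that met High first (Low2 and High1). An effect that differs between periods therefore cannot be told apart from a difference between these sets of males or their order of treatment. There were 0 members with a limma adjusted p below 0.05 (0% of all). At an unadjusted p below 0.05 there were 22 (8.43%), 12 above and 10 below 0. This stood against 8.08% of all clusters (4.29% above and 3.79% below). Centring the libraries on their medians gave 13 members above and 6 below, with no share of all clusters given for it. The count of 22 became 13 without Low1 replicate 7. The smallest adjusted p of the members was 0.437. Over the 8 tests, the members past an unadjusted p of 0.05 were on the long arm in all but 1 case in each of 5 tests and in every case in the other 3, and the short arm holds 8 of the 261 clusters. By its share past that p with all 24 libraries in the fit, the chromosome lay above the table in High1 against Low1 and in the difference of periods, and below it in the other 6 tests. Neither the shares nor the medians were tested against the rest of the table.

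**Figure D5:**
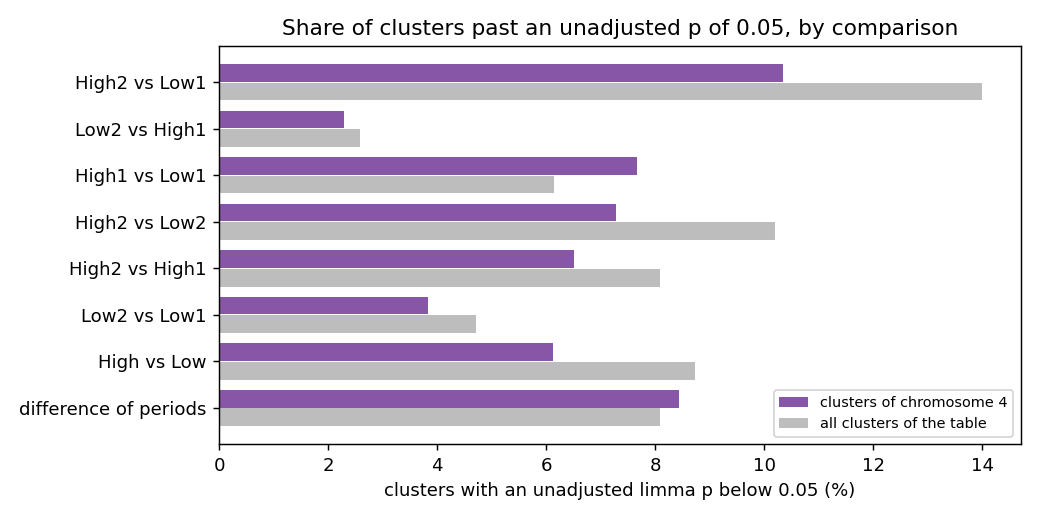
Percent of clusters with an unadjusted limma p below 0.05 (horizontal axis) in the 261 clusters of chromosome 4 and in all 1398 clusters of the table, for 8 comparisons. With all 24 libraries in the fit, High2 against Low1 has the longest bars, 10.3% of the chromosome's clusters and 14% of all, and Low2 against High1 the shortest, 2.3% and 2.58%, of which the 6 members become 22 without High1 replicate 1.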

How the data were processed

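Small RNA of zebrafish sperm was sequenced by the authors with NEBNext libraries on an Illumina HiSeq2500, and reads were aligned by them with PatMaN, without mismatch or gap, to 532 database clusters and to 902 clusters that proTRAC predicted from the pooled libraries. The deposited values are log2 values that the authors made from counts normalised with DESeq2. Tested on the file, they are the log2 of reads over a size factor plus 4, and whole reads were recovered for 34416 of 34416 values (100%, within 0.05 reads). How multiply aligned reads were counted is not given in the sources used here. Cluster names are on GRCz11, whereas the submitters' processing notes name GRCz10. Levels were taken back to normalised reads, and per kb by cluster length.

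Groups were compared with limma 3.58.1 in R 4.3.3 (lmFit, eBayes with a trend) on the deposited log2 values, all 24 libraries in 1 fit, two-sided, with Benjamini-Hochberg adjustment over the 1434 rows and a threshold of 0.05. Fold changes are on the log2(value + 4) scale, which understates changes of low clusters. Summaries used Python 3.11.15, numpy 2.4.6, pandas 2.3.3, scipy 1.17.1 and matplotlib 3.10.9, and the fit was tested on simulated data. The clusters named are the members on the study's list, those with the smallest p in each direction of each comparison, the most abundant of each arm, those nearest 27 Mb, the longest and the most and least variable. Members and lists were chosen with earlier results of these data known. Alternatives were the variance trend, centring, a filter on low values, the libraries in the fit, the sequencing pool, a pseudocount of 1, limma-voom on recovered reads, the other treatment labels, replicate blocks and each library left out. The planned counts of overlapping genes, repeats and base composition were not made, since no genome of this build was used here, and no sequence is printed.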

Additional observations from a re-analysis of the deposited data

Results flagged for a closer look

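Sets of 6 libraries were examined for 34 named clusters and 4 shares of cluster reads in each of 4 groups, 152 sets in all. In 11 of them, each for a named cluster, the highest or lowest library stood apart from the other 5 beyond Dixon's 95% critical value. Chance flags about 1 in 20 sets that were not chosen by their values. The named clusters were chosen partly by their p or variation in these libraries, so that this rate does not apply to them. Values are on the deposited log2 scale. The set-apart library was the highest in 6 sets. High2 replicate 10 reached 15.31 in NC_007115.7:67590002-67648027, the longest cluster, and Low1 replicate 9 reached 15.56 there. High2 replicate 6 reached 15.97 in chr4:42928066-42947018. Low2 replicate 3, the shallowest library, reached 20.09 in NC_007115.7:50437029-50449910. High1 replicate 1 reached 11.64 in NC_007115.7:73175084-73181996 and 11.44 in chr4:29536003-29550006. The set-apart library was the lowest in the other 5 sets. High2 replicate 2 had 7.79 in NC_007115.7:56635989-56643025 and 10.28 in chr4:29536003-29550006. Low2 replicate 2 had 10.23 in NC_007115.7:46831029-46839861, and Low2 replicate 3 had 7.49 in NC_007115.7:28712036-28719989. Low1 replicate 7 had 17.01 in NC_007115.7:34306979-34316570. What set these libraries apart was not tested.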

How the results depend on the processing

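No member had a limma adjusted p below 0.05 in any of the 8 comparisons when a single library was left out (0 to 0 members). Over all clusters, leaving out 1 library gave 0 to 1 calls in High2 against Low2 (1 without High2 replicate 6) and 0 to 1 in the difference of periods (1 without Low2 replicate 3). With only the groups compared, High2 against Low1 gave 5 members of 52 clusters. Without High1 replicate 1 and Low2 replicate 3 it gave 5 of 50, High1 against Low1 gave 2 of 9, and the difference of periods gave 1 cluster, not a member. The sequencing pool as a covariate gave 1 cluster in High2 against High1 and 6 in the difference of periods, limma-voom 1 in the difference of periods, and the record's treatment labels 1 in High against Low, none of them members. Those labels turned log2 fold changes: for chr4:60877023-60885024 to -0.035 in High2 against Low1 and -0.10 in High against Low, for NC_007115.7:76988247-76992378 to -0.072 in High2 against Low1, for chr4:42081004-42091017 to -0.14 and chr4:29536003-29550006 to 0.24 in High2 against Low2, and for chr4:57344003-57355026 to 0.094 and NC_007115.7:28712036-28719989 to -0.043 in High against Low. The High against Low value of NC_007115.7:52720448-52740603 ran from -0.30 without High2 replicate 10 to 0.090 without High2 replicate 6, and was 0.03 without Low2 replicate 2. For 32 pairs of a chosen cluster and a comparison, the limma adjusted p ran from 0.0275 to 0.99996 over the alternatives. NC_007115.7:50938082-50947990, not among these, had 0.0249 in High1 against Low1 without High1 replicate 1 and Low2 replicate 3. Members past an unadjusted p of 0.05 moved further. Their counts are given without the share of all clusters in the same fits, and so cannot be set against the table. Leaving out 1 library gave 16 to 40 in High2 against Low1, 1 to 22 in Low2 against High1, 9 to 34 in High1 against Low1, 10 to 39 in High2 against Low2, 9 to 14 in Low2 against Low1, 9 to 27 in High2 against High1, 9 to 48 in High against Low and 13 to 24 in the difference of periods. Without High1 replicate 1 and Low2 replicate 3 they were 48 in High2 against Low1, 11 in Low2 against High1, 41 in High1 against Low1, 11 in High2 against High1, 21 in Low2 against Low1 and 39 in High against Low. With only the groups compared they were 70 in High2 against Low1 and 1 in Low2 against High1. The sequencing pool as a covariate gave 34 in High2 against Low2, 19 in Low2 against Low1, 29 in High2 against High1 and 38 in the difference of periods. The record's labels gave 7 in High2 against Low1, 12 in High1 against Low1, 1 in High2 against High1, 2 in High2 against Low2 and 3 in the difference of periods. Dropping the lowest 25% of clusters gave 5 in Low2 against Low1, and limma-voom 26 in High2 against High1. The causes were not tested.

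Same-numbered libraries of a line did not deviate together (7 pairs, mean correlation -0.08, from -0.31 to 0.35, 1 above 0.1). So few pairs cannot show whether the same number stands for the same male. With a random replicate block, 0 clusters passed in any comparison. The fixed block was fitted only within a line and only on numbers present in both groups. These were replicates 6, 7, 9 and 10 for High2 against Low1 and 3, 4 and 6 for Low2 against High1, and 0 clusters passed in either. The members past an unadjusted p of 0.05 in High2 against Low1 were 24 with the random block and 33 with the fixed block. On the pairs of the fixed block, the High2 over Low1 value of NC_007115.7:52720448-52740603 was 0.042.

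The long arm share of 43.2% became 2.69% over the predicted clusters of the primary chromosome alone and 19.0% without the most abundant cluster of each arm. The short arm share of 0.101% became 0.0121% over database clusters alone, 0.0375% without its most abundant cluster and 0.425% with the boundary at 30 Mb. Depth limits the low clusters of Low2 replicates 2 and 3 most.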

Other observations

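The 45 predicted clusters of chromosome 4 that take reads from both strands, which the members leave out, held a mean of 0.813% of cluster reads, from 0.307% to 2.47% of a library. Their median level was 146 normalised reads per kb, beside 144 in the long arm members. Their coefficients of variation had a median of 0.199.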
